A study of Mus musculus with 48 samples.

Results

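The genes described here are 10 enzymes and partner proteins of eicosanoid synthesis, *Pla2g4a*, *Ptgs1*, *Ptgs2*, *Ptges*, *Ptgds*, *Hpgds*, *Tbxas1*, *Alox5*, *Alox5ap* and *Ltc4s*, followed in mouse forebrain tissue after permanent occlusion of the middle cerebral artery (MCAO). They were chosen by name as members of the pathway, with earlier results of these data known. All were found by symbol, as 10 of the 46983 genes in the count tables. All 10 had more than 10 counts in total and entered the tests.

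Eicosanoids are signalling lipids made from arachidonic acid, which the cytosolic phospholipase *Pla2g4a* cuts from membrane phospholipids. The cyclooxygenases *Ptgs1* (COX-1, present in many resting cells) and *Ptgs2* (COX-2, inducible, and in the brain also made by excitatory neurons) turn it into prostaglandin H2. *Ptges*, *Ptgds*, *Hpgds* and *Tbxas1* turn that into prostaglandin E2, prostaglandin D2 or thromboxane A2. In a separate branch, 5-lipoxygenase (*Alox5*) with its membrane partner *Alox5ap* makes leukotriene A4, which *Ltc4s* joins to glutathione, and in the brain these leukotriene genes are best known from microglia and blood-borne myeloid cells.

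Bulk RNA was counted in 48 libraries of C57Black/6 male mice 3 months old. The MCAO groups (artery coagulated and cut, 3 h, 12 h, 24 h, day 3 and day 7) had 5 libraries each, or 4 at 24 h. The sham groups (the same operation without occlusion, at the same times) had 4 each, and 1 uninjured control group had 4. The labels and methods name no transgene for these mice and no drug besides anaesthesia. The sample protocol names the injured cortical region with affected and unaffected tissue together, whereas the series text and the paper speak of forebrain hemispheres, so how much tissue beside the cortex a library holds is not certain. A level is an average over injured and uninjured tissue, and a change in the number of cells of a type cannot be told apart from a change in RNA per cell. The paper counts bulk replicates in mice per condition, but the labels do not tie each library to its own animal, and p-values measure the spread between these samples.

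The libraries held 1522668 to 2826735 counts on genes, and 3 counts in a control library were worth at least 1.67 CPM. Values are TMM-scaled CPM (a gene's counts relative to the library's total), and since the 3′ tag protocol gives 1 read per transcript whatever its length, they can be compared between genes. Defining markers of neurons and astrocytes were present in every group. A gene was called when its Benjamini-Hochberg adjusted p in edgeR's quasi-likelihood test, over 19970 genes, was under 0.01 and its log2 fold change was beyond 0.58 in size. Libraries A of MCAO day 3, C of MCAO day 7 and E of MCAO 12 h stood apart from their groups in marker lists of immune cells (A low, C and E high, values further on), and results that rest on them are given with and without them.

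The 10 genes spanned more than 3 orders of magnitude. *Ptgds* was at 1649 CPM on average over the 48 libraries, above 99.9% of the genes tested. *Ptgs1* (17.5 CPM), *Ptgs2* (14.4 CPM), *Hpgds* (13.2 CPM) and *Alox5ap* (12.0 CPM) followed, and *Ltc4s* was at 7.71 CPM. *Tbxas1* (4.39 CPM), *Ptges* (4.34 CPM) and *Pla2g4a* (4.0 CPM) were lower. *Alox5* was lowest at 0.93 CPM, with 0 to 8 counts per library and no count in 13 of the 48.

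In MCAO against sham no member was called at 3 h, 12 h or 24 h by edgeR, where 0.11%, 0.411% and 0.0901% of all genes tested were called in either direction, and DESeq2 also called 0 members at these times, beside 0.29%, 0.896% and 0.22% of all genes. At an unadjusted p under 0.05 edgeR found 3 members at 3 h, 4 at 12 h and 2 at 24 h, beside 8.45%, 14.6% and 8.8% of all genes. At day 3, 4 of the 10 were called higher (*Ptgs1*, *Hpgds*, *Alox5ap* and *Ltc4s*) against 3.76% of all genes, and none lower against 0.26%. At day 7, 1 of the 10 was called higher (*Hpgds*) against 2.07% of all genes, and none lower against 1.43%. At an unadjusted p under 0.05 there were 8 members at day 3 and 3 at day 7, all with positive fold changes, which 13.7% of all genes had at each of these times. DESeq2 called 5 higher at day 3, with *Tbxas1* added, and 2 at day 7, with *Alox5ap* added, beside 4.74% and 3.41% of all genes. The median log2 fold change of the 10 members was 0.43 at 3 h, 0.77 at 12 h, 0.65 at 24 h, 1.73 at day 3 and 0.70 at day 7, beside medians of 0 to 0.06 over all genes.

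**Figure D1:**
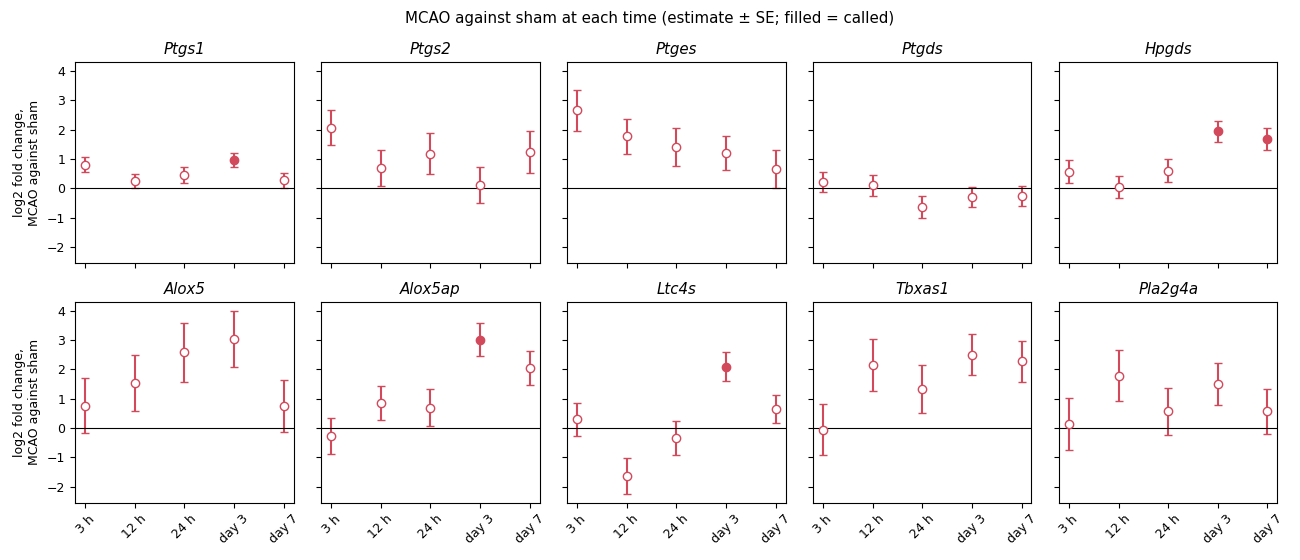
Log2 fold change of MCAO against sham (vertical axis) at 3 h, 12 h, 24 h, day 3 and day 7 (horizontal axis) for each of the 10 genes, with bars of 1 SE and filled points for called changes. Filled points are at day 3 for *Ptgs1*, *Hpgds*, *Alox5ap* and *Ltc4s* and at day 7 for *Hpgds*, while *Ptgs2* and *Ptges* had their largest estimates at 3 h.

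*Pla2g4a*, the phospholipase that releases arachidonic acid, was low in every group and did not pass the test at any time. In the control group it was at 3.35, 0.56, 3.95 and 0.57 CPM. At 12 h the 5 MCAO libraries (2.97, 2.91, 4.17, 2.94 and 9.53 CPM) all lay above the 4 sham libraries (2.23, 1.04, 1.48 and 0.39 CPM), as was the case for 2.03% of all genes. The 12 h log2 fold change was 1.78 (SE 0.86, edgeR adjusted p = 0.33). At day 3 its levels after MCAO spread from 2.67 to 19.0 CPM, with 2 libraries (C and E) at 18 CPM or more, while the shams lay between 0 and 6.46 CPM. The day 3 log2 fold change was 1.5 (SE 0.71, edgeR adjusted p = 0.20).

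Of the 2 cyclooxygenase genes *Ptgs1* was called, at day 3, and *Ptgs2* was not called at any time. *Ptgs1*, the constitutive enzyme, was at 15.6, 20.2, 17.5 and 15.4 CPM in the control group. At day 3 it was at 12.8, 23.5, 36.5, 28.3 and 28.2 CPM after MCAO and at 19.2, 13.8, 9.81 and 9.84 CPM in sham. Of the 5 MCAO libraries 4 lay above every sham and library A below 2 of them, and the gene rose by a log2 fold change of 0.96 (SE 0.25, edgeR adjusted p = 0.0081). The call is close to the limit. Without libraries A, C and E named above it was 1.12 with an adjusted p of 0.000232, but 6 of the 9 fits that leave out 1 library lost it, namely without C, D or E of MCAO day 3 (adjusted p = 0.0525, 0.0179 and 0.0245) or B, C or D of sham day 3 (adjusted p = 0.0216, 0.0479 and 0.0521). Against the control group the day 3 value was 0.59 (SE 0.25, edgeR adjusted p = 0.15).

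*Ptgs1* was also above all shams in every MCAO library at 3 h (15.6 to 30.7 against 10.3 to 13.8 CPM) and at 24 h (19.2 to 26.7 against 14.2 to 17.7 CPM), as 2.27% and 3.73% of all genes were. Neither difference passed the test, with log2 fold changes of 0.80 (SE 0.25, edgeR adjusted p = 0.22) and 0.45 (SE 0.26, edgeR adjusted p = 0.63). At 3 h neither sham (log2 fold change -0.50, edgeR adjusted p = 1) nor MCAO (0.30, edgeR adjusted p = 0.76) passed the test against the control group.

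*Ptgs2*, the inducible enzyme, was at 111, 59.1, 26.8, 14.2 and 28.2 CPM in the 5 MCAO libraries at 3 h. The 4 shams of that time were at 12.3, 14.4, 14.8 and 3.27 CPM, and the control group was at 4.46, 12.9, 21.4 and 14.3 CPM. The lowest MCAO library (D) lay among the shams, and the other 4 lay above them and spread widely. The log2 fold change was 2.07 (SE 0.59), and its edgeR adjusted p of 0.14 missed the threshold. Without library A of MCAO 3 h it was 1.5 (edgeR adjusted p = 0.52). At later times the gene did not pass the test in MCAO against sham, with log2 fold changes of 0.70 at 12 h, 1.18 at 24 h, 0.11 at day 3 and 1.25 at day 7 (edgeR adjusted p = 0.65, 0.64, 0.96 and 0.29).

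The summed level of 8 activity-regulated genes, *Fos*, *Arc*, *Egr1* and others, was 2898, 1395, 1278, 801 and 1042 CPM in the same 5 MCAO libraries and 590 to 809 CPM in the shams. The library with the most *Ptgs2* (A) and that with the least (D) were also those with the highest and the lowest sum. Over all 48 libraries the deviations from group means of *Ptgs2* and of the list's level, both on the log2(CPM + 1) scale with the list averaged over its genes, had Pearson's r of 0.60 (permutation p = 0.00024, adjusted over 9 relations 0.00108) and Spearman's rho of 0.62 (permutation p = 9e-05, adjusted 0.000405). With A of MCAO 3 h and D of MCAO 24 h left out r was 0.59. The same relation of *Ptgs2* with 8 neuron markers had r of 0.08 (permutation p = 0.57, rho 0.03 with p = 0.83). With the 9 of 10 neutrophil markers that could be tested r was 0.38 (permutation p = 0.030, adjusted 0.053, rho 0.31 with p = 0.064), and 0.23 without 2 libraries. What part activity or cell number had in the 3 h level was not tested.

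**Figure D2:**
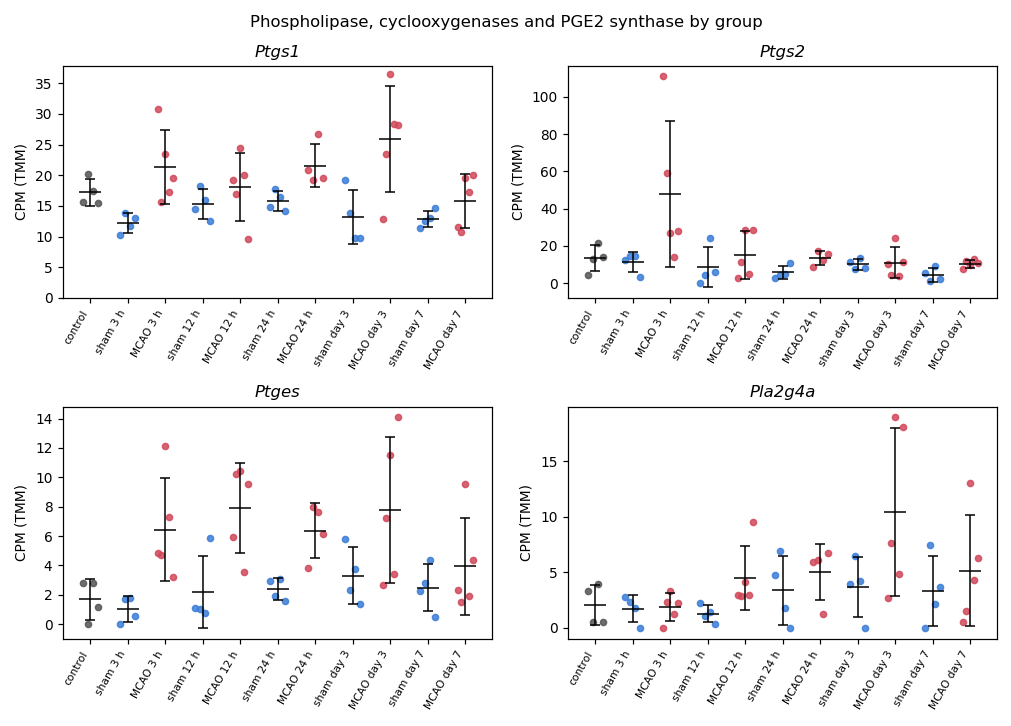
CPM (vertical axis) of *Ptgs1*, *Ptgs2*, *Ptges* and *Pla2g4a* in each library of the 11 groups (grey control, blue sham, red MCAO), with mean and SD in black. *Ptgs2* reached 111 CPM in 1 MCAO library at 3 h, while *Ptges*, not called at any time, was above every sham in all MCAO libraries at 3 h and 24 h and overlapped with sham at 12 h, day 3 and day 7.

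The 250 bases before the start of *Ptgs1* (GRCm38, chr2:36230176-36230425, plus strand, 48% G and C) and of *Ptgs2* (chr1:150099781-150100030, plus strand, 61.6% G and C), from RefSeq, are shown because the 2 genes code for the same reaction. Whether their timing differs was not tested. The letters of 7 motifs, picked with the results known, were searched in 250 bases before the start of the 9 members that the promoter table holds: the TATA box TATAAA on the gene's strand, and on both strands the core CGTCA of the cAMP response element, the E-box CACGTG, the CCAAT box, the AP-1 site TGANTCA, the PU.1 core GAGGAA (PU.1 is a myeloid factor) and the NF-kB consensus by its name. These 9 had 10 windows, with *Pla2g4a* in more than 1. By the Gencode coordinates the windows of *Ptges* and *Tbxas1* lie inside the gene rather than before its start. Capitals mark every match.
Ptgs1: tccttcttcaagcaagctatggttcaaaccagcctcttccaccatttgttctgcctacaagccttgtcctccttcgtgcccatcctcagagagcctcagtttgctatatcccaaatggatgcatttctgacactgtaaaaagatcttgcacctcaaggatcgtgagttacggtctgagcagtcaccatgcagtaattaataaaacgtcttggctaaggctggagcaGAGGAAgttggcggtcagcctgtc
Ptgs2: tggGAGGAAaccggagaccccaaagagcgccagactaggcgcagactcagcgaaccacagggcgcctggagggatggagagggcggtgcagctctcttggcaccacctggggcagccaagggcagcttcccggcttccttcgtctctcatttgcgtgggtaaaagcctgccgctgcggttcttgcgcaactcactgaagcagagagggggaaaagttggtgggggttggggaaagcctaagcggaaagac
Each of the 2 sequences held 1 match, the PU.1 core, at bases -24 to -19 before the start in *Ptgs1* and -247 to -242 in *Ptgs2*. That core was found in 6 of the 9 members, *Ptgs1*, *Ptgs2*, *Ptges*, *Hpgds*, *Alox5* and *Tbxas1*, and in 23.3% of 32851 windows of the same length. The TATA box was found in 1 member (*Tbxas1*, 7.59% of windows), the AP-1 site in 2 (*Ptgds* and *Tbxas1*, 6.75%) and the NF-kB consensus in 1 (*Ptgds*, 7.25%). The cAMP response core, the E-box and the CCAAT box were found in 0 of the 9, beside 17.8%, 6.02% and 33.8% of all windows. The search ended at the RefSeq start, so motifs after it were not looked for. No match in a member overlapped another, and a match or its absence is only a description of these letters.

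*Ptges*, the inducible microsomal synthase of prostaglandin E2, was the member with the largest log2 fold change at 3 h. It had 8, 10, 29, 17 and 7 counts in the MCAO libraries at 3 h (4.82, 4.73, 12.2, 7.32 and 3.19 CPM) and 0, 3, 4 and 1 in the shams (0, 1.73, 1.79 and 0.55 CPM). The groups did not overlap, as for 2.27% of all genes, and the control group was at 0 to 2.82 CPM. The log2 fold change was 2.66 (SE 0.70, edgeR adjusted p = 0.087). At 24 h every MCAO library (3.82 to 7.95 CPM) again lay above every sham (1.57 to 3.05 CPM), as for 3.73% of all genes. The estimates at 12 h, 24 h, day 3 and day 7 were 1.77, 1.41, 1.20 and 0.65 (edgeR adjusted p = 0.13, 0.53, 0.21 and 0.58). Against the control group the day 3 value was 2.17 (SE 0.65, edgeR adjusted p = 0.032). *Ptges* was thus above sham on average at every time but not called at any. At day 7 library C of MCAO was at 9.52 CPM, the others at 1.53 to 4.38 CPM and the shams at 0.46 to 4.36 CPM. Without the 3 libraries that stood apart the day 7 estimate was 0.02.

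*Ptgds*, the lipocalin-type prostaglandin D2 synthase of meninges, choroid plexus and oligodendrocytes, was the most abundant member in each of the 48 libraries. Its means by group ran from 1362 CPM (MCAO day 3) to 2422 CPM (sham 24 h), and no neighbours in that order were free of overlap. It was at 1395 to 1748 CPM in the control group. At 24 h it was at 1869, 1501, 1279 and 1600.4 CPM after MCAO and at 2829, 2246, 1823 and 2791 CPM in sham. The log2 fold change was -0.63 (SE 0.37, edgeR adjusted p = 0.63), with only library A of MCAO above the lowest sham.

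At day 3 and day 7 the spread of *Ptgds* between MCAO libraries was far wider than in sham. It was at 2363, 1825, 1087, 133 and 1404 CPM at day 3, against 1229 to 2057 CPM in sham. At day 7 it was at 782, 1371, 433, 1839 and 2621 CPM, against 1581 to 1792 CPM in sham. The 133 CPM of library D at day 3 rested on 273 counts. That library had the lowest sum of 8 leptomeningeal fibroblast genes of all 48 (85.9 CPM), whereas library C of day 7, with 433 CPM of *Ptgds*, had the highest (4679 CPM). The log2 fold changes were -0.28 at day 3 and -0.26 at day 7 (SE 0.35 at each, edgeR adjusted p = 0.68 and 0.69), and without D of MCAO day 3 the first was 0.01.

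**Figure D3:**
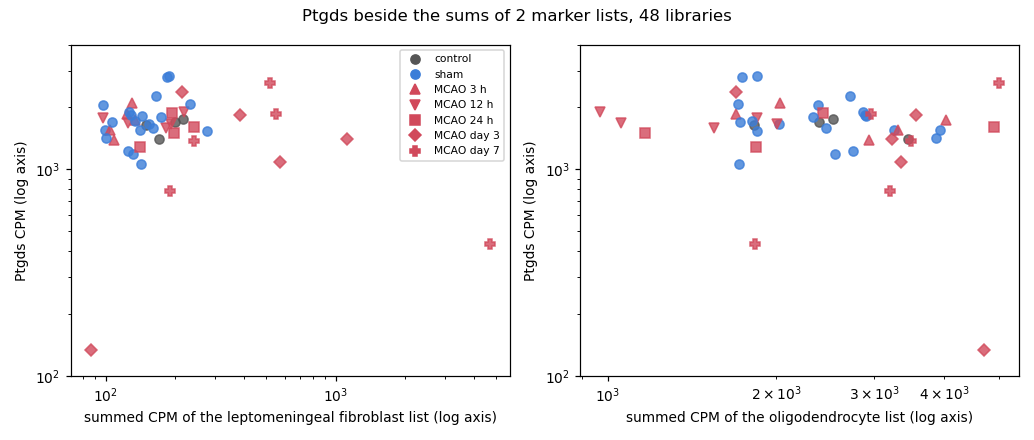
*Ptgds* CPM (vertical log axis) in the 48 libraries against the summed CPM (horizontal log axis) of 8 leptomeningeal fibroblast genes (left) and 8 oligodendrocyte genes (right). Control is a grey circle, sham at all times a blue circle, and each MCAO time has its own red shape. The lowest point, at 133 CPM, had the lowest leptomeningeal sum.

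On the same scale, deviations of *Ptgds* from its group means had Pearson's r of 0.36 with the leptomeningeal list (permutation p = 0.25, adjusted over 9 relations 0.37) and Spearman's rho of 0.41 (permutation p = 0.015, adjusted 0.027), and r was 0.38 without D of MCAO day 3 and C of MCAO day 7. With the oligodendrocyte list r was -0.08 (permutation p = 0.64, rho -0.11 with p = 0.51), and with the choroid plexus list r was 0.11 (permutation p = 0.55, rho 0.15 with p = 0.35). The oligodendrocyte sum lay between 970 and 5013 CPM. The choroid plexus sum was under 60 CPM in all libraries but 1 control at 506 CPM.

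*Hpgds*, the other prostaglandin D2 synthase, known from microglia, macrophages and mast cells, was the only member called at both day 3 and day 7. It was at 6.70, 8.99, 7.34 and 9.13 CPM in the control group. At day 3 it was at 21.4, 20.8, 44.4, 34.2 and 44.1 CPM after MCAO and at 8.34, 8.77, 11.2 and 5.62 CPM in sham. The groups did not overlap, as for 4.33% of all genes, and the gene rose by a log2 fold change of 1.95 (SE 0.36, edgeR adjusted p = 0.000149). The value stayed between 1.80 and 2.11 when any 1 library was left out.

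At day 7 *Hpgds* was at 19.0, 18.3, 50.6, 17.3 and 18.2 CPM after MCAO and at 10.9, 9.33, 4.36 and 5.93 CPM in sham, again with no overlap, as for 5.38% of all genes. It rose by 1.68 (SE 0.37, edgeR adjusted p = 0.0022). Library C held the highest level by far, and without it the value was 1.25 with an adjusted p of 0.0287, so that the call rests on that library. The call was also lost without C or D of sham day 7 (adjusted p = 0.0121 and 0.0197). At 24 h the levels were 17.0, 8.88, 14.8 and 23.2 CPM against 11.9, 12.0, 6.10 and 11.5 CPM in sham, with a log2 fold change of 0.61 (SE 0.38, edgeR adjusted p = 0.67).

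*Hpgds* was thus 33.0 ± 11.6 CPM (SD, n = 5) at day 3 beside *Ptgds* at 1362 ± 837 CPM (SD, n = 5). Against the control group it rose by 2.03 at day 3 (SE 0.37, edgeR adjusted p = 0.000189) and by 1.60 at day 7 (SE 0.37, edgeR adjusted p = 0.0063). Without C of MCAO day 7 the latter was 1.17 (adjusted p = 0.0936), and leaving out any 1 of the 4 control libraries also lost it (adjusted p = 0.0383, 0.0176, 0.0261 and 0.0224 without A, B, C and D). Of 6 mast cell markers 2 had enough counts to be tested, and the defining *Cpa3* and *Mcpt4* were not among them. At day 3 the sum of the list was 0 to 29.5 CPM after MCAO, with a median of 0.88 CPM, and 0.47 to 0.93 CPM in sham.

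*Tbxas1*, thromboxane synthase, known from platelets and from microglia and macrophages, was at 0.56, 2.81, 1.69 and 4.0 CPM in the control group. At day 3 it was at 1.07, 8.13, 18.5, 18.6 and 15.9 CPM after MCAO and at 2.90, 1.85, 0.47 and 3.28 CPM in sham. Of the 5 MCAO libraries 4 lay above every sham, and A lay below 3 of them. The log2 fold change was 2.5 (SE 0.69), and its edgeR adjusted p of 0.015 missed the threshold. It was 2.79 without library A (adjusted p = 0.00237), and DESeq2 called it at 2.56 (adjusted p = 0.0047). At day 7 all 5 MCAO libraries (5.77, 6.62, 41.0, 5.28 and 5.64 CPM) lay above all shams (0.55 to 4.20 CPM), as for 5.38% of all genes. The day 7 log2 fold change was 2.27 (SE 0.69, edgeR adjusted p = 0.029), and without library C it was 1.14 (adjusted p = 0.34). The sum of 6 platelet markers was 33.6 to 156 CPM after MCAO at day 3 and 23.5 to 38.8 CPM in sham, and platelet *Ppbp* and *Gp9* had no count in the day 3 shams. *Hipk2* and shorter genes overlap *Tbxas1*, mostly on the other strand, and the strand setting of the counting is not given in the sources used here, so reads of the 2 strands may not be told apart. The same holds for *Ptgs1* (with *Gm43621*), *Hpgds* (*Gm17147*), *Alox5ap* (*n-R5s180* and *Gm19719*), *Ltc4s* (*Gm26542*) and *Pla2g4a* (*n-R5s219*), while *Gm13400* overlaps *Ptges* on its own strand.

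*Alox5*, the lipoxygenase that starts leukotriene synthesis, had the fewest counts of the members. At day 3 it had 2, 4, 8, 2 and 7 counts in the MCAO libraries (1.07, 1.81, 4.0, 0.98 and 3.08 CPM) and 1, 0, 0 and 1 in the shams. Every MCAO library lay above every sham, as for 4.33% of all genes, but the log2 fold change of 3.03 (SE 0.96, edgeR adjusted p = 0.038) rested on 25 counts in all and missed the threshold. At 24 h it had 5, 2, 6 and 4 counts after MCAO and 0, 0, 0 and 2 in sham, with a log2 fold change of 2.57 (SE 1.02, edgeR adjusted p = 0.40). With so few counts the values of *Alox5* are imprecise.

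*Alox5ap*, the membrane protein that presents arachidonic acid to the lipoxygenase, had the largest called fold change. It was at 6.41, 21.2, 79.4, 31.7 and 65.2 CPM at day 3 after MCAO and at 4.71, 6.46, 2.80 and 6.09 CPM in sham. Of the MCAO libraries 4 were at 21.2 CPM or more, and A lay within the range of the shams. The gene rose by a log2 fold change of 3.01 (SE 0.56, edgeR adjusted p = 0.000223), and by 3.07 against the control group (SE 0.58, edgeR adjusted p = 0.000367), where it was at 2.23, 2.25, 7.90 and 6.85 CPM. Leaving out any 1 library kept the call against sham, with values from 2.63 to 3.28.

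At day 7 *Alox5ap* was at 12.1, 9.67, 73.8, 14.9 and 8.77 CPM after MCAO and at 5.72, 4.20, 6.0 and 6.84 CPM in sham, without overlap, as for 5.38% of all genes. The log2 fold change of 2.05 (SE 0.57, edgeR adjusted p = 0.016) missed the threshold, and without library C it was 1.00 (adjusted p = 0.28). Conversely it passed without B or E of MCAO day 7 (adjusted p = 0.00921 and 0.00912). At 12 h library E was at 29.8 CPM and the other 4 at 4.85 to 8.16 CPM, within the range of the shams (2.73 to 8.34 CPM). The 12 h log2 fold change was 0.84 (SE 0.57, edgeR adjusted p = 0.53), and 0.13 without library E.

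*Ltc4s*, the synthase of leukotriene C4, was at 8.54, 28.9, 20.5, 19.5 and 27.3 CPM at day 3 after MCAO and at 3.99, 6.0, 3.27 and 6.56 CPM in sham. Every MCAO library lay above every sham, as for 4.33% of all genes, and it rose by a log2 fold change of 2.08 (SE 0.50, edgeR adjusted p = 0.0040). The call was lost in 5 of the 9 fits that leave out 1 library, without B or E of MCAO day 3 (adjusted p = 0.0121 and 0.0147) or A, B or C of sham day 3 (adjusted p = 0.0227, 0.0117 and 0.0237), though the value stayed between 1.93 and 2.27. Before that, at 12 h, it was low after MCAO, with 2.97, 1.94, 0, 2.94 and 0.60 CPM against 12.3, 7.82, 1.11 and 2.34 CPM in sham. That difference of -1.63 (SE 0.61, edgeR adjusted p = 0.18) did not pass, and it was -0.99 without A of sham 12 h. At day 7 it was at 7.68 to 26.8 CPM after MCAO and 4.58 to 14.6 CPM in sham (log2 fold change 0.64, SE 0.48, edgeR adjusted p = 0.44).

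**Figure D4:**
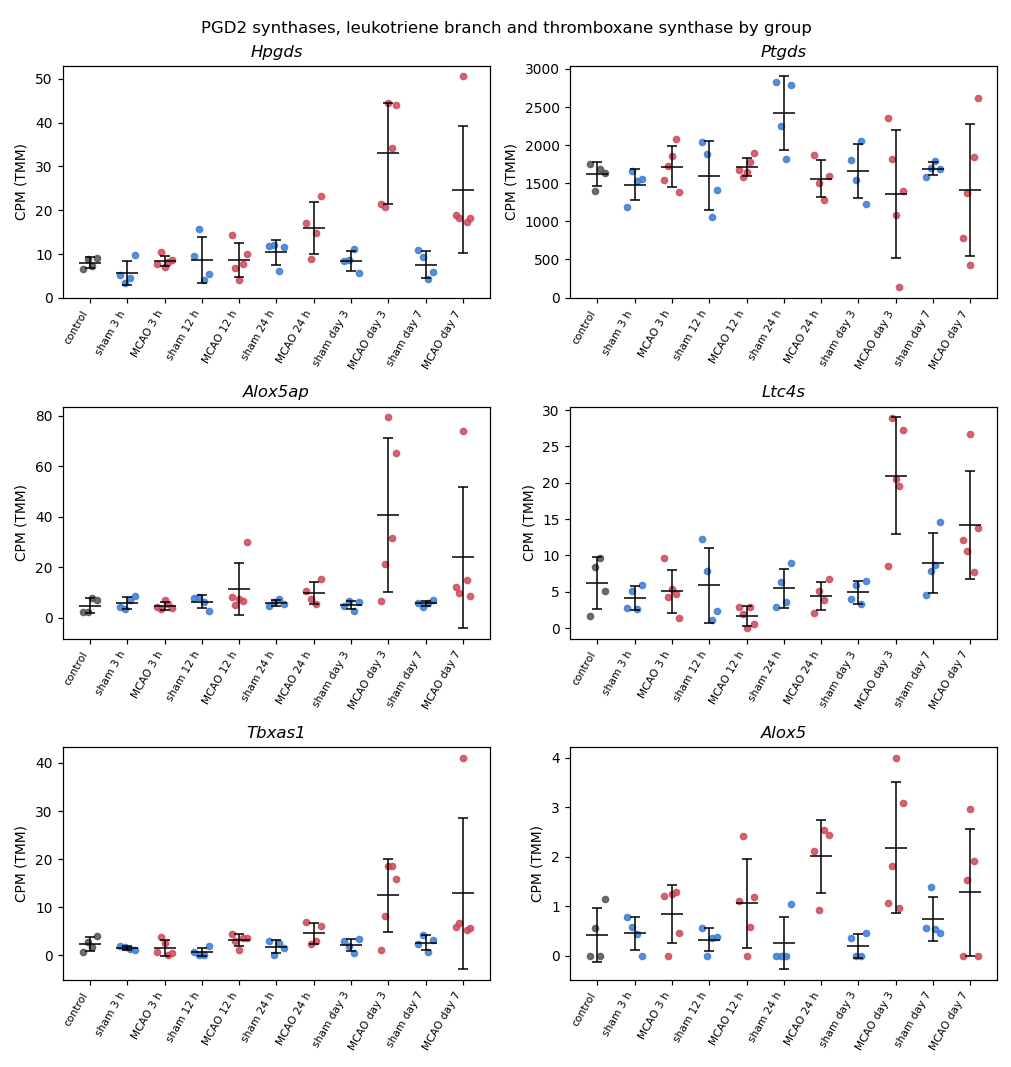
CPM (vertical axis) of *Hpgds*, *Ptgds*, *Alox5ap*, *Ltc4s*, *Tbxas1* and *Alox5* in each library of the 11 groups (grey control, blue sham, red MCAO), with mean and SD in black. *Hpgds*, *Alox5ap* and *Ltc4s* were highest on average at MCAO day 3, and 1 library of MCAO day 7 stood far above the other 4 for *Hpgds*, *Alox5ap* and *Tbxas1*.

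Of the other members called at day 3, *Hpgds* held the PU.1 core at bases -49 to -44 and *Ltc4s* held none of the 7 motifs, while *Alox5ap* is not in the promoter table.

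At day 3 and day 7, when members were called, the microglia, peripheral myeloid and neutrophil sums of all MCAO libraries were above every sham. In part they were also above sham at earlier times, when no member was called. All 11 microglia genes were detected in every group, and their sum was 832, 1795, 3596, 2324 and 3187 CPM in the MCAO libraries A to E of day 3, against 355 to 457 CPM in sham. At day 7 it was 1119.9, 1436, 4749, 1109 and 1576 CPM against 504 to 642 CPM. The sum of 7 peripheral myeloid genes was 25.1, 237, 921, 287 and 789 CPM at day 3 (7 of 7 detected) against 8.41 to 20.1 CPM in sham (4 of 7, *Ly6c2* at 0), and 101, 187, 4065, 123 and 175 CPM at day 7 against 10.9 to 13.2 CPM. *Lyz2*, a lysozyme that macrophages and activated microglia also make, was 85.1% to 98.4% of that sum in the 10 MCAO libraries, and the monocyte receptor *Ccr2* was at 1.6 to 43.4 CPM at day 3 and 0 to 8.33 CPM at day 7. Library A of day 3 was thus lowest and C of day 7 highest in both sums, as they were for *Alox5ap* and *Tbxas1* within their groups. Of 10 neutrophil genes 9 had enough counts to be tested. Their sum was 7.47 to 636 CPM at MCAO day 3 against 0 to 3.63 CPM in sham, and 5.77 to 29.2 CPM at day 7 against 0.91 to 5.15 CPM. At MCAO 12 h it was 12.2 to 1717 CPM, where E was highest, against 2.79 to 3.33 CPM in sham. The defining marker *Ly6g* was not among them, with at most 10 counts over all 48 libraries. At 3 h, beside the *Ptgs2* and *Ptges* values, the neutrophil sum was 10.2 to 63.3 CPM after MCAO and 3.27 to 9.41 CPM in sham, and the microglia sums overlapped (382 to 495 and 392 to 528 CPM). At 24 h the microglia sum was 719 to 933 CPM against 418 to 553 CPM, the peripheral myeloid sum 29.0 to 95.3 CPM against 10.5 to 17.8 CPM, and the neutrophil sum 31.4 to 61.1 CPM against 4.72 to 7.58 CPM. Border macrophage genes summed to 18.7 to 65.2 CPM at MCAO day 3 against 7.50 to 12.5 CPM in sham. At day 7 they overlapped, with 13.3 to 81.5 CPM against 6.87 to 14.7 CPM. What part cell number had in the levels of the members was not tested.

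Of the other lists, median sums at day 3 after MCAO and in sham were 5931 and 8578 CPM for 8 neuron genes, 3494 and 4655 CPM for 6 astrocyte genes, 3343 and 2825 CPM for 8 oligodendrocyte genes, 326 and 232 CPM for 6 endothelial genes, 383 and 143 CPM for 8 leptomeningeal fibroblast genes and 12.7 and 7.01 CPM for 7 choroid plexus genes. In each of these lists the MCAO and sham ranges overlapped, as for the leptomeningeal sums (85.9 to 1118 and 126 to 233 CPM).

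Within groups *Alox5ap* moved with the myeloid lists. The deviations of *Alox5ap* and of the peripheral myeloid list from their group means, on the same log2 scale, had Pearson's r of 0.85 (permutation p = 2e-05, adjusted over 9 relations 0.00018). Spearman's rho was 0.69 (permutation p = 5e-05, adjusted 0.000405), and r was 0.76 without A of MCAO day 3 and C of MCAO day 7. With the microglia list r was 0.71 (permutation p = 0.0018, adjusted 0.00405, rho 0.53 with p = 0.00181), which was 0.49 without the same 2 libraries. With the neutrophil list r was 0.60 (permutation p = 0.00088, adjusted 0.00264, rho 0.47 with p = 0.00338), which was 0.46 without E of MCAO 12 h and C of MCAO day 3.

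**Figure D5:**
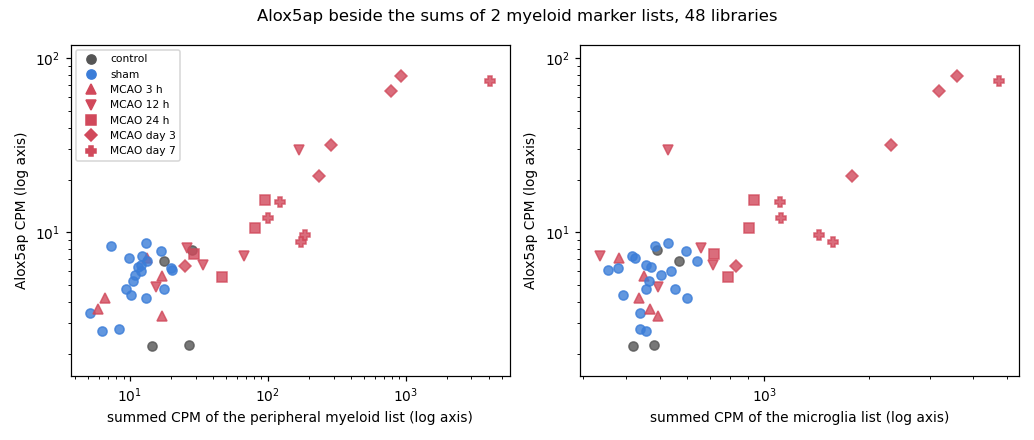
*Alox5ap* CPM (vertical log axis) in the 48 libraries against the summed CPM (horizontal log axis) of 7 peripheral myeloid genes (left) and 11 microglia genes (right). Control is a grey circle, sham at all times a blue circle, and each MCAO time has its own red shape. The MCAO day 3 library with the lowest myeloid sum, at 25.1 CPM, had 6.41 CPM of *Alox5ap*, among the shams, and the others had 21.2 CPM or more.

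Without the 3 libraries that stood apart, chosen after the data were seen, 5 members were called at day 3 (*Ptgs1*, *Hpgds*, *Alox5ap*, *Ltc4s* and *Tbxas1*) and none at day 7, beside 6.16% of all genes called higher at day 3 and 1.9% called in either direction at day 7. The log2 fold changes at day 3 were then 1.12, 2.07, 3.28, 2.28 and 2.79 in that order.

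Against the control group MCAO gave no called member at 3 h, 12 h or 24 h by edgeR, beside 0.13%, 0.856% and 0.28% of all genes called in either direction. DESeq2 also called 0, beside 0.401%, 1.42% and 0.601%, and 2, 2 and 3 members had an unadjusted p under 0.05, beside 9.15%, 16% and 11%. At day 3 edgeR called 2 members higher (*Hpgds* and *Alox5ap*) against 2.81% of all genes, and at day 7 it called 1 (*Hpgds*) against 1.09%. These comparisons share the MCAO libraries with those against sham. *Ltc4s* had 1.75 at day 3 (SE 0.50, edgeR adjusted p = 0.021) and *Tbxas1* had 2.43 (SE 0.71, edgeR adjusted p = 0.026). Sham surgery itself gave no called member against the control group at any time by edgeR or DESeq2, beside 0%, 0.0351%, 0.01%, 0% and 0% of all genes from 3 h to day 7 by edgeR and 0%, 0.0551%, 0.0701%, 0.00501% and 0% by DESeq2. The only member with an unadjusted p under 0.05 there, as 8.03% of all genes had at day 7, was *Ptgs2* at day 7, at 0.93 to 9.27 CPM in sham and 4.46 to 21.4 CPM in the control group (log2 fold change -1.58, SE 0.73, edgeR adjusted p = 0.60).

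Whether the difference between MCAO and sham changed from one time to the next was tested directly, and edgeR and DESeq2 called no member at any of the 4 steps, beside 0.01%, 0.01%, 0.01% and 0% of all genes by edgeR and 0.015%, 0.015%, 0.025% and 0.285% by DESeq2. At an unadjusted p under 0.05 there were 1 member from 3 h to 12 h, 0 from 12 h to 24 h, 3 from 24 h to day 3 and 1 from day 3 to day 7, beside 7.12%, 5.08%, 8.82% and 16.2% of all genes. From 24 h to day 3 the log2 difference grew by 2.42 for *Ltc4s* (SE 0.77, edgeR adjusted p = 0.36), 2.32 for *Alox5ap* (SE 0.85, edgeR adjusted p = 0.43) and 1.35 for *Hpgds* (SE 0.52, edgeR adjusted p = 0.46). Without the 3 libraries that stood apart, 1 member (*Alox5ap*) was called at that step, beside 0.41% of all genes.

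In the order of group means no gene had neighbouring groups that were free of overlap. *Ptgs1*, *Hpgds*, *Alox5*, *Alox5ap*, *Ltc4s* and *Pla2g4a* had their highest mean at MCAO day 3, *Ptgs2* at MCAO 3 h, *Ptges* at MCAO 12 h (7.92 ± 3.05 CPM, SD, n = 5) and *Tbxas1* at MCAO day 7. The day 7 mean of *Tbxas1* (12.9 CPM) rests on library C at 41.0 CPM, and the median was 5.77 CPM. At MCAO day 3 its mean was 12.4 CPM and its median 15.9 CPM. *Ptgds* alone had its highest mean in a sham group.

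The genes whose 11 group means were most like those of a member, by Pearson's r among 11733 genes, differed between the members. For *Ptgs2* they were *Errfi1*, a feedback inhibitor of the EGF receptor (r = 0.96), *E2f4* (0.94) and *Lrrfip1* (0.93). For *Hpgds* they were *Fkbp10* (0.98), a chaperone of collagen, *Arap1* (0.97) and *Ctsz* (0.96), a lysosomal protease. For *Alox5ap* they were *Gnai2* (0.98), *Dbi* (0.98) and *H2-Eb1* (0.98), a chain of MHC class II. For *Ltc4s* they were *Frmd4b* (0.97), *Siglech* (0.96), a microglial lectin, and *Kcnj10* (0.94), an astrocyte potassium channel. For *Ptgs1* they were *Ezh2* (0.93), *Arap3* (0.92) and *Tfe3* (0.92), and for *Ptgds* *Gm37183* (0.90), *Cep170b* (0.90) and *Sp2* (0.90). These are 11 points that share libraries and the best of many genes, so they are a description only.

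Of 75 other genes of the eicosanoid pathway 65 could be tested. In MCAO against sham edgeR called 0 of them at 3 h, 12 h and 24 h (3, 16 and 6 at an unadjusted p under 0.05, and 0 at each time by DESeq2), 5 higher and 0 lower at day 3, and 1 higher and 1 lower at day 7. Of all genes 3.76% were called higher and 0.26% lower at day 3, and 2.07% and 1.43% at day 7, so that the counts at day 7 are near the background. DESeq2 called 4 higher and 1 lower at each of the 2 later times, beside 4.74% and 0.436% of all genes at day 3 and 3.41% and 2.08% at day 7. At day 3 the genes called by edgeR were 1 of 5 genes of arachidonic acid re-esterification, 1 of 9 of the epoxide and cytochrome P450 branch, 1 of 6 leukotriene and lipoxin receptors and 2 of 8 genes of prostaglandin transport and breakdown. None was among the 14 further phospholipases and lipases, the 5 other prostanoid synthases, the 10 other leukotriene and lipoxygenase enzymes or the 8 prostanoid receptors. The median log2 fold change of the 65 was 0.18 at day 3, beside 0.01 over all genes.

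*Slco2b1*, an organic anion carrier, had the lowest adjusted p of these. It was at 23.5, 59.2, 78.9, 51.8 and 60.8 CPM at day 3 after MCAO and at 19.6, 20.3, 18.7 and 12.2 CPM in sham, without overlap, as for 4.33% of all genes, and rose by 1.63 (SE 0.25, edgeR adjusted p = 1.09e-05). *Cmklr1*, a receptor for chemerin and resolvin E1, rose by 2.93 (SE 0.55, edgeR adjusted p = 0.000224), from 0 to 3.27 CPM in sham to 8.01 to 30.4 CPM. *Lpcat3*, which puts arachidonic acid back into phospholipids, rose by 1.22 (SE 0.32, edgeR adjusted p = 0.0097), with 17.1 to 52.4 CPM against 7.01 to 19.8 CPM. *Cyp4f18*, which inactivates leukotriene B4, had no count in the 4 shams and 0, 15, 42, 9 and 34 counts in the MCAO libraries (edgeR adjusted p = 0.0072), at least 28.9-fold higher on average against a floor of 3 counts over the sham group. *Abcc4*, an exporter of prostaglandins named after its values were seen, rose by 1.15 (SE 0.30, edgeR adjusted p = 0.0098). DESeq2 (adjusted p = 0.0157) and a fit on only the groups compared (adjusted p = 0.0149) did not call *Cyp4f18*. The calls of *Lpcat3*, *Cyp4f18* and *Abcc4* were each lost when 1 of several libraries was left out (adjusted p up to 0.0683, 0.0277 and 0.0555).

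At day 7 *Lta4h*, which makes leukotriene B4 from leukotriene A4, was at 46.7, 36.6, 30.9, 36.5 and 29.4 CPM after MCAO and at 19.5, 10.7, 21.3 and 9.58 CPM in sham, without overlap, as for 5.38% of all genes, and rose by 1.25 (SE 0.33, edgeR adjusted p = 0.0096). The control group was at 20.6 to 45.2 CPM, and sham did not pass the test against it (log2 fold change -1.15, SE 0.34, edgeR adjusted p = 0.56). The call was lost in 7 of the 9 fits that leave out 1 library (adjusted p up to 0.0717, without D of sham day 7). *Mgll*, the lipase that frees arachidonic acid from 2-arachidonoylglycerol in the brain, fell by 0.92 (SE 0.20, edgeR adjusted p = 0.0021), from 438, 418, 391 and 639 CPM in sham to 253, 291, 185, 263 and 252 CPM. Its call was lost without C of MCAO day 7 or D of sham day 7 (adjusted p = 0.0133 and 0.0295). The control group was at 273 to 439.7 CPM of *Mgll*.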

How the data were processed

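Permanent MCAO, sham and control libraries were made from polyA RNA with a 3′ tag kit (QuantSeq FWD) and ERCC spike-ins. The authors trimmed reads (TrimmomaticSE), removed ribosomal and mitochondrial reads (SortMeRNA), aligned the rest to GRCm38 (STAR 2.5.2b, per the labels) and counted them on Gencode vM8 with htseq-count. The deposited counts, 1 table per library, were used as they are. The authors also deposited a matrix of log2 values (variance-stabilized by DESeq2), which served only to repeat the correlations. Rows without a gene (21.1% to 30.6% of alignments without a feature, 0.34% to 0.48% ambiguous, 24.0% to 37.3% not unique) and spike-ins stayed out. Symbols and coordinates came from Gencode vM21 (same build, 46488 of 46983 genes).

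A single edgeR 4.0.16 model of the 11 groups (TMM, glmQLFit and glmQLFTest, R 4.3.3) took every gene whose counts summed to over 10, and this step was tested on simulated data. DESeq2 1.42.0, other filters and scalings, ERCC scaling, a replicate block, only the groups compared, and left-out libraries were alternatives. Correlations used deviations from group means of log2(CPM + 1), averaged over the genes of a list, and 100000 two-sided permutations within groups, 9 relations adjusted together. The 10 members, the 75 pathway genes, the 13 marker lists and the motifs were chosen with earlier results of these data known. Named pathway genes are those called in MCAO against sham, at most the 4 largest rises and falls at a time, and *Abcc4* beyond that rule. For members of at least 5 CPM the 3 genes with the most similar group means are named. Floors cover counting error only. Promoters came from RefSeq (GRCm38.p6), which held 9 of the 10 members. Python 3.11.15 and matplotlib 3.10.9 were used.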

Additional observations from a re-analysis of the deposited data

Results flagged for a closer look

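Of 110 sets of 1 member in 1 group, 10 (9.09%) held a library far from the others by Dixon's test, which chance alone does in about 1 of 20 sets. Library C of MCAO day 7 held 3 of them, *Hpgds* at 50.6 CPM (the others at 17.3 to 19.0), *Alox5ap* at 73.8 CPM (the others at 8.77 to 14.9) and *Tbxas1* at 41.0 CPM (the others at 5.28 to 6.62). Its microglia sum was 4749 CPM, its peripheral myeloid sum 4065 CPM and its leptomeningeal fibroblast sum 4679 CPM, each the highest of that group.

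Library E of MCAO 12 h held 2, *Alox5ap* at 29.8 CPM (the others at 4.85 to 8.16) and *Pla2g4a* at 9.53 CPM (the others at 2.91 to 4.17), and had a neutrophil sum of 1717 CPM, against 177 CPM or less in the other 4 libraries of its group.

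The other 5 rested on 15 counts or fewer. *Ptges* was at 5.84 CPM (15 counts) in library D of sham 12 h, with the others at 1.12 or less. *Hpgds* was at 6.10 CPM (10 counts) in C of sham 24 h, below 11.5 to 12.0 in the others. *Alox5* was at 1.05 CPM in D of sham 24 h and 1.40 CPM in B of sham day 7, which are 2 and 3 counts. *Pla2g4a* was at 1.27 CPM (3 counts) in C of MCAO 24 h, below 5.95 to 6.72 in the others.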

How the results depend on the processing

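Of 1005 alternative values of log2 fold changes, 902 kept direction and side of the threshold, 73 lost the call, 9 gained it and 21 changed sign, and the 27 alternatives for Pearson's r changed none. Spearman's rho of *Ptgds* with the leptomeningeal list (0.41, adjusted permutation p = 0.027) was 0.35 with an adjusted p of 0.060 in the deposited log2 matrix. With ERCC scaling the median log2 fold change of all genes at day 3 was -0.22 in MCAO against sham and -0.28 in MCAO against control. In the main fit these medians were 0.01 and 0.02. Where no cause is named it was not tested.

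The number of members called at day 3 against sham (4) was 2 with ERCC scaling and 2 to 5 with 1 library left out. Of all 19970 genes 594 were called in either direction with ERCC scaling, and 802 in the main fit. At day 7 (1) it was 3 at an adjusted p under 0.05 with no fold limit, 2 with no filter, ERCC scaling or DESeq2, 0 with only the groups compared or without the 3 libraries that stand apart, and 0 to 2 with 1 library left out. Beside these, 698 of all 19970 genes were called in the main fit and 1845 at an adjusted p under 0.05. With no filter 998 of 26575 were called, with ERCC scaling 489 and with DESeq2 1096. With only the groups compared they were 302 of 16383, and without the 3 libraries 375 of 19773. Against control at day 3 (2) it was 5 at an adjusted p under 0.05, 4 with no filter or DESeq2, 1 with only the groups compared, 5 without the 3 libraries and 2 to 4 with 1 left out. All genes called there were 619 of 19970 in the main fit, and 1353 at an adjusted p under 0.05. They were 773 of 26575 with no filter and 861 with DESeq2. With only the groups compared they were 224 of 16564, and without the 3 libraries 1249 of 19773. Against control at day 7 (1) it was 3 at an adjusted p under 0.05, 2 with no filter or DESeq2, 0 with ERCC scaling, the replicate block, only the groups compared or without the 3 libraries, and 0 to 2 with 1 left out. All genes called there were 300 of 19970 in the main fit, and 720 at an adjusted p under 0.05. They were 461 of 26575 with no filter, 463 with DESeq2, 240 with ERCC scaling and 228 with the replicate block. With only the groups compared they were 165 of 16280, and without the 3 libraries 131 of 19773. For the step from 24 h to day 3 (0) it was 1 without the 3 libraries, beside 81 of 19773 genes, and 2 of 19970 in the main fit.

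Signs changed in estimates of at most 0.56 in size, none of them called. Against sham, *Hpgds* at 12 h (0.06) was -0.027 and *Ptgs2* at day 3 (0.11) was -0.18 with ERCC scaling. *Pla2g4a* at 3 h (0.12) was -0.13 and *Ptgs2* at day 3 -0.049 with the replicate block, and *Pla2g4a* at day 7 (0.56) was -0.13 without the 3 libraries. With 1 library left out, *Ltc4s* ranged from -0.031 to 0.54 at 3 h and -0.58 to 0.015 at 24 h, *Tbxas1* from -0.71 to 0.28 at 3 h, *Pla2g4a* from -0.25 to 0.48 at 3 h and -0.12 to 1.31 at day 7, *Ptgds* from -0.056 to 0.24 at 12 h and -0.58 to 0.011 at day 3, *Hpgds* from -0.25 to 0.51 at 12 h and *Ptgs2* from -0.42 to 0.32 at day 3.

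Nothing in the labels ties equal replicate letters, and deviations of equally lettered libraries correlated by -0.26 to 0.29 over 60 pairs, with every pair over 0.1 in 0 of 15 comparisons and the own letter best in 20 of the 60. A replicate block changed 6 of 60 calls or signs, among them *Ptgs1* at day 3 (0.96, adjusted p = 0.0132). All genes called at day 3 against sham numbered 802, and 594 with ERCC scaling (463 higher and 131 lower, against 750 and 52), 339 with only the groups compared and 1531 without the 3 libraries. At day 7 they numbered 698, and 489 with ERCC scaling (403 higher and 86 lower, against 413 and 285), 302 with only the groups compared (143 higher and 159 lower), 1096 with DESeq2 and 375 without the 3 libraries. Members with few counts, *Alox5* above all, limit what this depth can show.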
